A study of Homo sapiens with 10 samples.

Results

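The interleukin 6 (IL6) family genes described here are the ligands IL6, IL11, LIF and CLCF1, the receptor chains IL6ST, IL6R, OSMR and LIFR, the feedback inhibitor SOCS3 and the transcription factor STAT3. They were found by matching the Ensembl identifiers of the count tables to gene symbols, current or older. All 10 genes were found among 57445 gene identifiers; 9 passed the filter on low counts and STAT3 did not. The RNA came from PC3, an established prostate cancer cell line, in 5 groups with 2 libraries each. Cells carried a stable hairpin RNA (RNF2 shRNA1 or RNF2 shRNA2), were exposed to PRT4165 or to GW-516 for 48 hours, or carried a stable Scramble hairpin as control. RNF2 is a catalytic subunit of Polycomb repressive complex 1 (PRC1), which adds ubiquitin to histone H2A. The compound PRT4165 inhibits that ubiquitin ligase activity, and GW-516 is known here only by its code name. The labels name no untreated or vehicle-treated group and no dose, so the compounds were set against Scramble, and the action of a compound cannot be told apart from that of its vehicle, the Scramble hairpin vector or a separate culture.

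Cytokines of this family signal through gp130, the protein encoded by IL6ST. IL6 and IL11 first bind a receptor chain of their own, and CLCF1 also uses such a chain, CNTFR. LIF, CLCF1 and oncostatin M bring gp130 together with LIFR or OSMR. The receptors carry Janus kinases (JAK), which phosphorylate STAT3; STAT3 then enters the nucleus and switches on its targets, among them SOCS3, which binds gp130 and the kinases and ends the signal. In prostate cancer, IL6 signalling is known for its links with bone metastasis and with growth after androgen withdrawal.

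Several features of the libraries bear on every value. RNF2 was at 12.07 and 11.96 CPM (counts scaled to a common library size) in the RNF2 shRNA1 libraries, against 30.6 and 28.3 CPM in Scramble libraries, a log2 fold change of -1.29 (edgeR adjusted p = 2.34e-15). It was at 33.5 and 35.3 CPM where the label says RNF2 shRNA2, a log2 fold change of 0.23 against Scramble (edgeR adjusted p = 0.00103), so RNF2 mRNA goes against that label. BMI1, a PRC1 partner of RNF2, was at 53.0 and 61.6 CPM in those same libraries, against 251 and 255 CPM in Scramble libraries (log2 fold change -2.14, edgeR adjusted p = 9.82e-12). The paths recorded in the count tables name the cells MDV3 and not PC3 in all 10 libraries. They name the RNF2 shRNA2 libraries 20155, the second with the ending L005only, and the GW-516 libraries Th4, names that the labels do not explain. Both libraries of Scramble, of RNF2 shRNA1 and of GW-516 differed from each other little more than counting noise, and nothing in the labels says that they came from separate cultures, so p-values measure only the spread between these libraries. Total counts ran from 65877850 to 108380198 per library. The epithelial genes KRT8, KRT18 and EPCAM were expressed throughout, and the androgen receptor gene stayed at or below 0.334 CPM. A gene was called higher or lower at an edgeR adjusted p below 0.05.

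Ligands and their promoters come first, because IL6 and IL11 had the widest range of levels among the family genes. The ratio of the highest to the lowest group mean was 10.3 for IL6 and 6.00 for IL11, against 1.43 to 2.58 for the other 7 genes tested. The IL6 ratio rests on 4 counts in PRT4165. Without PRT4165 replicate 1 the lowest group is RNF2 shRNA1, with 6 counts, and the ratio is 6.62. Without PRT4165 replicate 2 the PRT4165 group is at 0 and gives no ratio. The 250 bases before the annotated start of each gene, from RefSeq on GRCh38.p14 and read along the gene's own strand, are shown to place the inducible-factor motifs that these promoters hold. Capitals mark matches to the AP-1 motif (TGANTCA) or to the NF-kB motif on either strand.
IL6, chr7:22726950-22727199, plus strand: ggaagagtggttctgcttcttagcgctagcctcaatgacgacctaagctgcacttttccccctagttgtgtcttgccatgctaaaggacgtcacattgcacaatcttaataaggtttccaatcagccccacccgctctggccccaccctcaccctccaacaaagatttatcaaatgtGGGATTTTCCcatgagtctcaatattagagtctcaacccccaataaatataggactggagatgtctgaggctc
IL11, chr19:55370464-55370713, minus strand: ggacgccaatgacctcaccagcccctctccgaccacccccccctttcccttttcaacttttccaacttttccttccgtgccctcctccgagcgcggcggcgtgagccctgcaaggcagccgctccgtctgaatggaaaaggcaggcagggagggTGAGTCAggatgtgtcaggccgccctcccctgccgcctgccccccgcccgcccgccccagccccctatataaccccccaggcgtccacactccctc
In the IL11 window the AP-1 match begins 96 bases before the start. In the IL6 window the NF-kB match begins 73 bases before the start, a C/EBP motif (TTGCNNAA) 155 bases and a CRE-like hexamer (TGACGT) 163 bases before it, with no overlap among them. Among 35116 promoter windows of the same length, 6.57% hold the AP-1 motif, 9.96% the NF-kB motif, 9.05% the C/EBP motif and 7.1% TGACGT. RefSeq promoter entries were matched for 8 of the 10 family genes, and not for LIF and CLCF1. The STAT motif (TTCNNNGAA), held by 6.57% of all windows, was matched in windows of LIFR. IL6ST also held an NF-kB match, and OSMR and LIFR held C/EBP matches; LIFR alone held TATAAA. A match describes letters in a window and no more.

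IL11, a gp130 cytokine known for roles in bone and in fibrosis, was the family gene that GW-516 changed most (ENSG00000095752.2, chromosome 19, 55875757 to 55881831, minus strand, GRCh37). It was at 2.22 and 2.25 CPM in RNF2 shRNA1 libraries, 2.26 and 2.47 CPM in libraries labelled RNF2 shRNA2, 4.37 and 5.42 CPM in PRT4165 libraries, 13.6 and 13.2 CPM in GW-516 libraries and 2.08 and 2.46 CPM in Scramble libraries. Both compounds lay above every hairpin library, GW-516 well above PRT4165, and all 6 hairpin libraries overlapped in 1 narrow band. The rise over Scramble was 5.90-fold with GW-516 (log2 fold change 2.56, SE 0.12, edgeR adjusted p = 6.29e-15) and 2.15-fold with PRT4165 (log2 fold change 1.11, SE 0.13, edgeR adjusted p = 1.76e-07). GW-516 exceeded PRT4165 by 1.45 on the log2 scale (95% interval 1.23 to 1.68, edgeR adjusted p = 1.32e-10). Neither hairpin group passed the test against Scramble, with log2 fold changes of -0.023 for RNF2 shRNA1 (95% interval -0.33 to 0.28) and 0.069 for RNF2 shRNA2 (-0.22 to 0.36).

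LIF, the leukaemia inhibitory factor, was highest in RNF2 shRNA1 cells (ENSG00000128342.4, chromosome 22, 30636436 to 30642840, minus strand). Its level was 51.8 and 53.5 CPM in RNF2 shRNA1 libraries, 20.3 and 22.3 CPM in libraries labelled RNF2 shRNA2, 39.4 and 38.6 CPM in PRT4165 libraries, 40.3 and 38.6 CPM in GW-516 libraries and 22.5 and 21.3 CPM in Scramble libraries. RNF2 shRNA1 stood above the compounds, the compounds overlapped each other, and RNF2 shRNA2 overlapped Scramble. LIF rose 2.40-fold with RNF2 shRNA1 (log2 fold change 1.26, SE 0.053, edgeR adjusted p = 4.79e-16), 1.78-fold with PRT4165 (3.87e-12) and 1.80-fold with GW-516 (9.65e-13). The difference between GW-516 and PRT4165 was 0.017 on the log2 scale, with a 95% interval of -0.087 to 0.12 (edgeR adjusted p = 0.825). The libraries labelled RNF2 shRNA2 did not pass the test against Scramble (log2 fold change -0.036, edgeR adjusted p = 0.644) and lay 1.30 below RNF2 shRNA1 on the log2 scale (log2 difference -1.30, edgeR adjusted p = 1.29e-16).

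CLCF1, the cardiotrophin-like cytokine that acts through CNTFR, LIFR and gp130, changed in the same 3 groups over a narrower range (ENSG00000175505.9, chromosome 11, 67131639 to 67141648, minus strand). CNTFR itself did not pass the filter on low counts, with group means of 0 to 0.0350 CPM. CLCF1 was at 13.9 and 14.1 CPM in RNF2 shRNA1 libraries, 10.8 and 11.1 CPM in libraries labelled RNF2 shRNA2, 15.4 and 15.9 CPM in PRT4165 libraries, 16.0 and 15.0 CPM in GW-516 libraries and 9.35 and 10.9 CPM in Scramble libraries. RNF2 shRNA1 and both compounds lay above every Scramble library, while RNF2 shRNA2 overlapped Scramble. The rise over Scramble was 1.39-fold with RNF2 shRNA1 (log2 fold change 0.48, SE 0.077, edgeR adjusted p = 9.66e-06), 1.55-fold with PRT4165 (2.22e-07) and 1.54-fold with GW-516 (1.16e-07). Of its exonic bases, 61 (3.07%) are shared on the same strand with ENSG00000256514, which was at 0 counts. Without Scramble replicate 2, RNF2 shRNA2 also passed against Scramble (log2 fold change 0.24, edgeR adjusted p = 0.0478), against 0.12 and 0.228 with both.

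IL6 itself was near the lower limit of detection (ENSG00000136244.7, chromosome 7, 22765503 to 22771621, plus strand). Its counts were 4 and 2 in RNF2 shRNA1 libraries, 24 and 27 in libraries labelled RNF2 shRNA2, 0 and 4 in PRT4165 libraries, 22 and 14 in GW-516 libraries and 6 and 4 in Scramble libraries. Every library of RNF2 shRNA2 and of GW-516 had more counts than any library of the other 3 groups. Summed over both libraries, this is 0.284 CPM without TMM scaling in RNF2 shRNA2 (95% exact Poisson interval 0.211 to 0.373), 0.219 in GW-516 (0.153 to 0.303), 0.0441 in RNF2 shRNA1 (0.0162 to 0.0960), 0.0269 in PRT4165 (0.00733 to 0.0689) and 0.0724 in Scramble (0.0347 to 0.133). These intervals cover counting error only and are too narrow, because both ends of a fragment were counted. The 0 in PRT4165 replicate 1 allows up to 0.0377 CPM (3 counts of the library), a limit that is too low for the same reason.

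IL6 passed the filter on low counts only through RNF2 shRNA2 and GW-516, the groups in which it is higher, since no other library reached 10 counts. In the fit across all genes, it was higher in the libraries labelled RNF2 shRNA2 than in Scramble (log2 fold change 1.99, SE 0.67, edgeR adjusted p = 0.0195) and than in RNF2 shRNA1 (log2 fold change 2.66, SE 0.74, edgeR adjusted p = 0.00336). IL6 was also higher with GW-516 than with PRT4165 (log2 fold change 2.87, SE 0.82, edgeR adjusted p = 0.0068), a value of 1.82 without PRT4165 replicate 1 (0.127), of 2.54 without GW-516 replicate 1 (0.0749) and of 7.03 without PRT4165 replicate 2 (0.00305), which leaves the library at 0 counts. GW-516 against Scramble did not pass (log2 fold change 1.499, 95% interval 0.056 to 2.94, edgeR adjusted p = 0.073), nor did RNF2 shRNA1 (-0.66, 0.574) or PRT4165 (-1.37, 0.296). The PRT4165 value rests on which library is kept, since without PRT4165 replicate 2 only the library at 0 counts is left and the test passes (edgeR adjusted p = 0.0467). The rise of IL6 in the libraries labelled RNF2 shRNA2 over Scramble lost its call without Scramble replicate 1 (0.0865), without Scramble replicate 2 (0.139), without RNF2 shRNA2 replicate 1 (0.0898) and with the near-identical pairs summed (0.116). That last fit holds 1 sample each for GW-516, RNF2 shRNA1 and Scramble, so its spread comes from PRT4165 and RNF2 shRNA2 alone, whose libraries differ most. Against RNF2 shRNA1 the call was lost without RNF2 shRNA1 replicate 2 (0.0558).

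**Figure D1:**
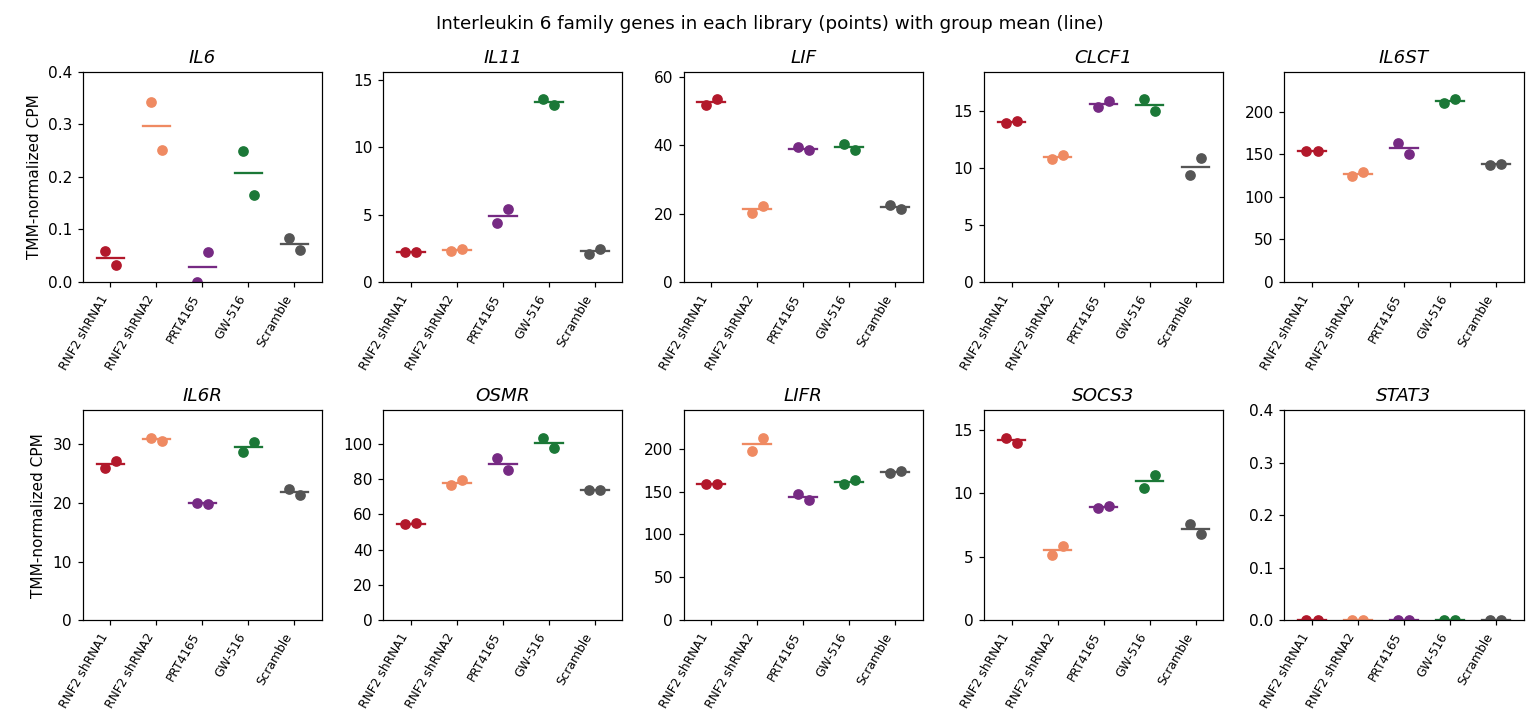
TMM-normalized CPM (vertical axes, each starting at 0) of the 10 family genes in each library, as points, with the group mean as a line, with the groups along the horizontal axis. IL11 reached 13.6 and 13.2 CPM with GW-516, LIF and SOCS3 were highest in RNF2 shRNA1 libraries, and STAT3 was at 0 throughout.

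IL6ST, which encodes the shared signal transducer gp130, was one of the family's most abundant transcripts and rose most with GW-516 (ENSG00000134352.15, chromosome 5, 55230923 to 55290821, minus strand). It was at 154 and 154 CPM in RNF2 shRNA1 libraries, 125 and 129 CPM in libraries labelled RNF2 shRNA2, 163 and 151 CPM in PRT4165 libraries, 211 and 215 CPM in GW-516 libraries and 137 and 139 CPM in Scramble libraries. GW-516 stood apart above all others, and RNF2 shRNA2 was the single group below Scramble. The rise over Scramble was 1.54-fold with GW-516 (log2 fold change 0.62, SE 0.035, edgeR adjusted p = 1.22e-13), 1.14-fold with PRT4165 (1.25e-04) and 1.12-fold with RNF2 shRNA1 (4.71e-04). The fall in the libraries labelled RNF2 shRNA2 was -0.12 on the log2 scale (edgeR adjusted p = 0.00555); it lost its call without Scramble replicate 2 (0.0875). With the near-identical pairs summed, the IL6ST calls of RNF2 shRNA1 (0.0723) and RNF2 shRNA2 (0.124) against Scramble were lost, at log2 fold changes of 0.17 and -0.14.

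IL6R, the chain that binds IL6, was highest in GW-516 libraries and those labelled RNF2 shRNA2 (ENSG00000160712.8, chromosome 1, 154377669 to 154441926, plus strand). Its level was 26.0 and 27.3 CPM in RNF2 shRNA1 libraries, 31.2 and 30.6 CPM in libraries labelled RNF2 shRNA2, 20.05 and 19.8 CPM in PRT4165 libraries, 28.7 and 30.5 CPM in GW-516 libraries and 22.4 and 21.3 CPM in Scramble libraries. Both PRT4165 libraries lay below both Scramble libraries, and the other 3 groups lay above them. IL6R rose 1.22-fold with RNF2 shRNA1 (log2 fold change 0.28, edgeR adjusted p = 9.63e-05), 1.41-fold in the libraries labelled RNF2 shRNA2 (4.13e-08) and 1.35-fold with GW-516 (1.61e-07). The PRT4165 difference from Scramble, -0.13 on the log2 scale, did not pass (edgeR adjusted p = 0.0549). GW-516 exceeded PRT4165 by 0.57 (SE 0.053, edgeR adjusted p = 5.53e-09).

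OSMR, which pairs with gp130 to bind oncostatin M, changed in opposite directions under RNF2 shRNA1 and the compounds (ENSG00000145623.8, chromosome 5, 38845960 to 38945698, plus strand). It was at 54.4 and 54.9 CPM in RNF2 shRNA1 libraries, 76.6 and 79.2 CPM in libraries labelled RNF2 shRNA2, 92.0 and 84.8 CPM in PRT4165 libraries, 104 and 97.7 CPM in GW-516 libraries and 73.8 and 73.6 CPM in Scramble libraries. RNF2 shRNA1 was below every other library and both compounds were above every hairpin library. OSMR fell to 0.741 of the Scramble level with RNF2 shRNA1 (log2 fold change -0.43, SE 0.043, edgeR adjusted p = 3.87e-09). It rose 1.37-fold with GW-516 (log2 fold change 0.45, edgeR adjusted p = 1.05e-09) and 1.20-fold with PRT4165 (1.16e-05). The libraries labelled RNF2 shRNA2 did not pass (log2 fold change 0.080, 95% interval -0.0054 to 0.16, edgeR adjusted p = 0.127), and they exceeded RNF2 shRNA1 by 0.51 (1.19e-10).

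LIFR, the signalling chain for LIF and CLCF1, had the narrowest range of the 9 genes tested (ENSG00000113594.5, chromosome 5, 38475065 to 38608456, minus strand). Its level was 158 and 159 CPM in RNF2 shRNA1 libraries, 198 and 213 CPM in libraries labelled RNF2 shRNA2, 147 and 140 CPM in PRT4165 libraries, 159 and 164 CPM in GW-516 libraries and 172 and 173 CPM in Scramble libraries. The RNF2 shRNA2 libraries lay above Scramble and all others below it. LIFR rose 1.19-fold in the libraries labelled RNF2 shRNA2 (log2 fold change 0.25, SE 0.035, edgeR adjusted p = 2.49e-06) and fell with PRT4165 (log2 fold change -0.27, edgeR adjusted p = 1.36e-06). The falls with RNF2 shRNA1 (log2 fold change -0.12, edgeR adjusted p = 0.005) and GW-516 (-0.096, 0.0235) were small. Each was lost when Scramble replicate 1 was left out (0.0531 for RNF2 shRNA1 and 0.13 for GW-516), when Scramble replicate 2 was left out (0.0995 and 0.223) and with the near-identical pairs summed (0.262 and 0.346). The first was also lost without RNF2 shRNA1 replicate 2 (0.0789), and the second without either GW-516 replicate (0.341 and 0.0794) and with RLE size factors (0.069).

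SOCS3, the feedback inhibitor of gp130 signalling, moved in opposite directions in the hairpin groups (ENSG00000184557.3, chromosome 17, 76352864 to 76356158, minus strand). It was at 14.4 and 13.99 CPM in RNF2 shRNA1 libraries, 5.15 and 5.84 CPM in libraries labelled RNF2 shRNA2, 8.81 and 9.00 CPM in PRT4165 libraries, 10.4 and 11.5 CPM in GW-516 libraries and 7.59 and 6.83 CPM in Scramble libraries. No library of a group overlapped one of another group, and RNF2 shRNA2 was the single group below Scramble. SOCS3 rose 1.97-fold with RNF2 shRNA1 (log2 fold change 0.98, SE 0.088, edgeR adjusted p = 8.03e-10), 1.52-fold with GW-516 (2.44e-06) and 1.23-fold with PRT4165 (0.00866). It fell to 0.766 of the Scramble level in libraries labelled RNF2 shRNA2 (log2 fold change -0.38, edgeR adjusted p = 0.0016). Set against RNF2 shRNA1, those libraries were lower by a log2 difference of -1.36 (SE 0.088, edgeR adjusted p = 1.46e-12). The PRT4165 call was lost without Scramble replicate 2 (0.104) and with the near-identical pairs summed (0.0648).

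**Figure D2:**
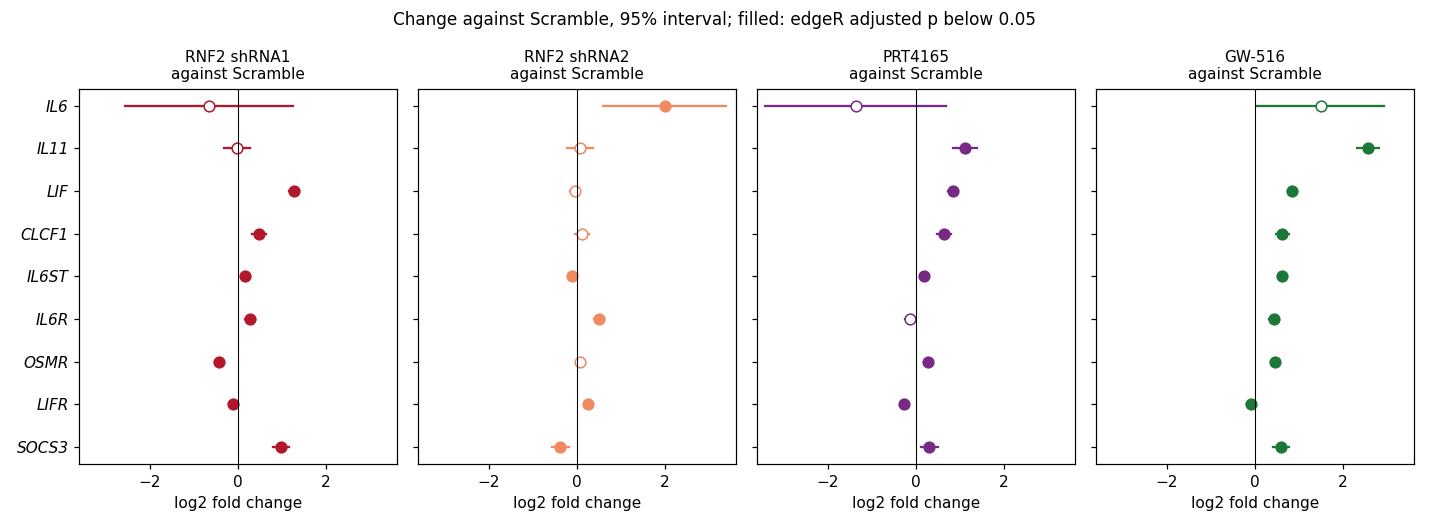
Log2 fold change against Scramble (horizontal axes) of the 9 tested family genes, with 95% intervals as bars, 1 panel for each hairpin or compound group; filled points passed an edgeR adjusted p below 0.05. The IL6 intervals are the widest, IL11 lies at 1.11 with PRT4165 and 2.56 with GW-516, and SOCS3 lies on opposite sides of 0 in the hairpin groups.

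Counted together, 5 of the 9 family genes tested were higher and 2 lower with RNF2 shRNA1 than in Scramble, where 54.7% of all 18478 genes tested were called, 26.2% higher and 28.6% lower. In the libraries labelled RNF2 shRNA2, 3 were higher and 2 lower, with 42.1% of all genes called, 21.1% higher and 21% lower, and with the near-identical pairs summed 3 of these 5 calls were left. With PRT4165, 6 were higher and 1 lower, with 41.6% of all genes called, 19.9% higher and 21.7% lower. With GW-516, 7 were higher and 1 lower, with 55.5% of all genes called, 26.5% higher and 29% lower. The median log2 fold change of the 9 genes was 0.16 with RNF2 shRNA1, 0.080 with RNF2 shRNA2, 0.26 with PRT4165 and 0.62 with GW-516, against medians over all genes tested of -0.015, 0.0086, -0.012 and -0.0025 in the same 4 comparisons. These comparisons share the Scramble libraries, so their values are given side by side and no more is read from their likeness. IL6 enters these counts and medians, though it passed the filter only through RNF2 shRNA2 and GW-516, where it is higher. It is among the genes called higher with RNF2 shRNA2.

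Between the compounds, 7 of the 9 genes were higher with GW-516 than with PRT4165 and none was lower, with 41.1% of all genes called, 18.1% higher and 23% lower. IL6 is counted here and between the hairpin groups below, though it passed the filter only through RNF2 shRNA2 and GW-516, where it is higher. Its call between the compounds was lost without PRT4165 replicate 1 or without GW-516 replicate 1. LIF and CLCF1 were those that did not pass, with log2 differences of 0.017 and -0.0072 and 95% intervals of -0.087 to 0.12 and -0.15 to 0.14. Beside IL11, IL6R and IL6, the differences were 0.44 for IL6ST (edgeR adjusted p = 2.8e-10), 0.19 for OSMR (5.71e-04), 0.17 for LIFR (4.32e-04) and 0.30 for SOCS3 (0.00674). The SOCS3 difference was lost without GW-516 replicate 2 (0.115), and those of SOCS3 (0.0693) and LIFR (0.0601) with the near-identical pairs summed. Between the hairpin groups, 4 genes were higher and 4 lower in the libraries labelled RNF2 shRNA2 than in RNF2 shRNA1, with 59.2% of all genes called, 29.9% higher and 29.2% lower. IL6, IL6R, OSMR and LIFR were higher, and LIF, CLCF1, IL6ST and SOCS3 were lower. IL11 did not pass (log2 difference 0.093, 95% interval -0.20 to 0.38).

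The compounds were also set against the hairpin groups. Against RNF2 shRNA1, 2 family genes were higher and 4 lower with PRT4165, where 53.2% of all genes were called, 27.4% higher and 25.8% lower. With GW-516, 5 were higher and 2 lower, where 61.4% were called, 31% higher and 30.4% lower. LIF and SOCS3 were lower with either compound than with RNF2 shRNA1, and IL11 and OSMR were higher. IL6 is among the 5 genes higher with GW-516, and among those lower with PRT4165 than in RNF2 shRNA2 below. It passed the filter only through RNF2 shRNA2 and GW-516, where it is higher. Against the libraries labelled RNF2 shRNA2, 6 were higher and 3 lower with PRT4165, where 51.4% were called, 25.1% higher and 26.3% lower. With GW-516, 6 were higher and 1 lower, where 60.1% were called, 29.3% higher and 30.8% lower. LIFR was the gene lower with GW-516 there, and IL6R, LIFR and IL6 were those lower with PRT4165. The IL6 difference was -3.36 on the log2 scale (edgeR adjusted p = 9.09e-04), and -2.30 without PRT4165 replicate 1 (0.0358) and -7.52 without PRT4165 replicate 2, which leaves the library at 0 counts.

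Per kilobase of exon, IL6ST, LIFR and OSMR had the highest levels in Scramble cells, and IL6 the lowest of the 9 genes tested. In Scramble cells the mean level was 14.9 ± 0.139 CPM per kb for IL6ST, 14.5 ± 0.106 for LIFR, 10.3 ± 0.0219 for OSMR, 5.52 ± 0.223 for LIF, 5.09 ± 0.536 for CLCF1, 3.45 ± 0.119 for IL6R, 2.64 ± 0.198 for SOCS3, 0.850 ± 0.102 for IL11 and 0.0267 ± 0.00598 for IL6 (SD, n = 2 each). LIF and CLCF1 lay within their spread of each other in this order. With GW-516, IL11 reached 5.01 ± 0.110 CPM per kb (SD, n = 2), above IL6R at 4.67 ± 0.198 and SOCS3 at 4.01 ± 0.272. With RNF2 shRNA1, LIF reached 13.3 ± 0.300 CPM per kb, beside 13.4 ± 0.00802 for LIFR (SD, n = 2 each).

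**Figure D3:**
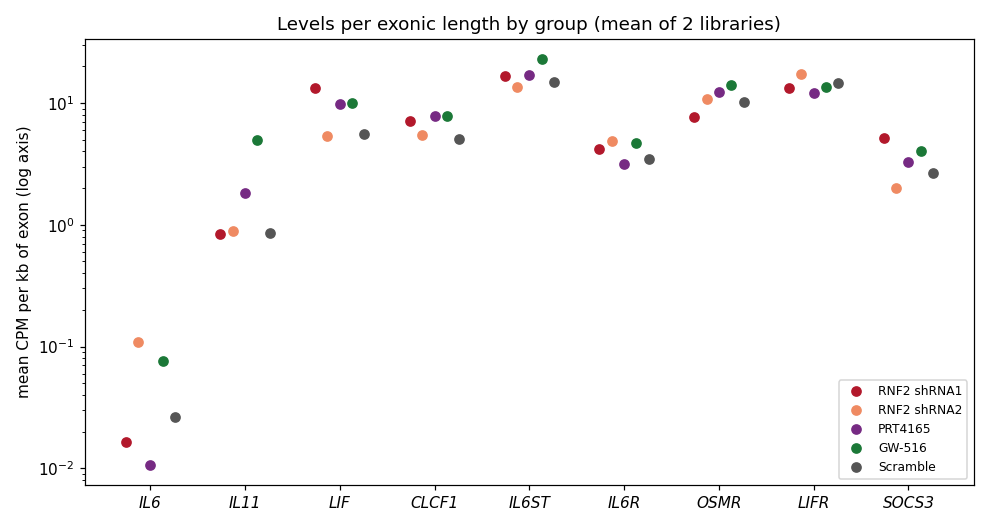
Mean TMM-normalized CPM per kilobase of exon (vertical log axis) of the 9 tested family genes in the 5 groups; each point is the mean of 2 libraries. IL6 lies far below the other genes in every group, and IL11 spans 0.835 to 5.01 CPM per kb.

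Neighbouring groups in the order of levels often did not differ. For IL6, none of the 4 steps between neighbouring groups passed the edgeR test, from RNF2 shRNA2 through GW-516, Scramble and RNF2 shRNA1 down to PRT4165. For SOCS3, all 4 steps passed, from RNF2 shRNA1 through GW-516, PRT4165 and Scramble down to RNF2 shRNA2. For LIF, GW-516 did not differ from PRT4165 (edgeR adjusted p = 0.825) nor Scramble from RNF2 shRNA2 (0.644). For IL6R, RNF2 shRNA2 did not differ from GW-516 (edgeR adjusted p = 0.323) nor Scramble from PRT4165 (0.0549). In OSMR only the step between RNF2 shRNA2 and Scramble did not pass (edgeR adjusted p = 0.127), and in LIFR only that between GW-516 and RNF2 shRNA1 (0.536).

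STAT3, the transcription factor at the end of the pathway, had 0 counts in all 10 libraries. At 3 counts of the library, the upper limits are 0.0277 to 0.0455 CPM, which is too low because both ends of a fragment were counted. The gene lies on chromosome 17, 40465342 to 40540586, minus strand, on GRCh37 (ENSG00000168610.10). DHX58, KAT2A, RAB5C, KCNH4, HCRT, GHDC, STAT5B, STAT5A, STAT3 and CAVIN1 are 10 consecutive protein-coding genes and all had 0 counts, and all 16 genes of any type between 40253422 and 40575535, over 322 kb, were at 0. The genes next to them had a few counts, 37 for ZNF385C and 44 for C17orf113 over all libraries on one side and 181 for ATP6V0A1 on the other. Further out, NKIRAS2 averaged 4.79 CPM, DNAJC7 66.8 CPM and NAGLU 8.52 CPM. KAT2A and RAB5C encode an acetyltransferase and an endosomal GTPase that most cells use. PC3 is known as a line that has lost STAT3. The counts are of RNA and do not show whether the DNA is present.

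**Figure D4:**
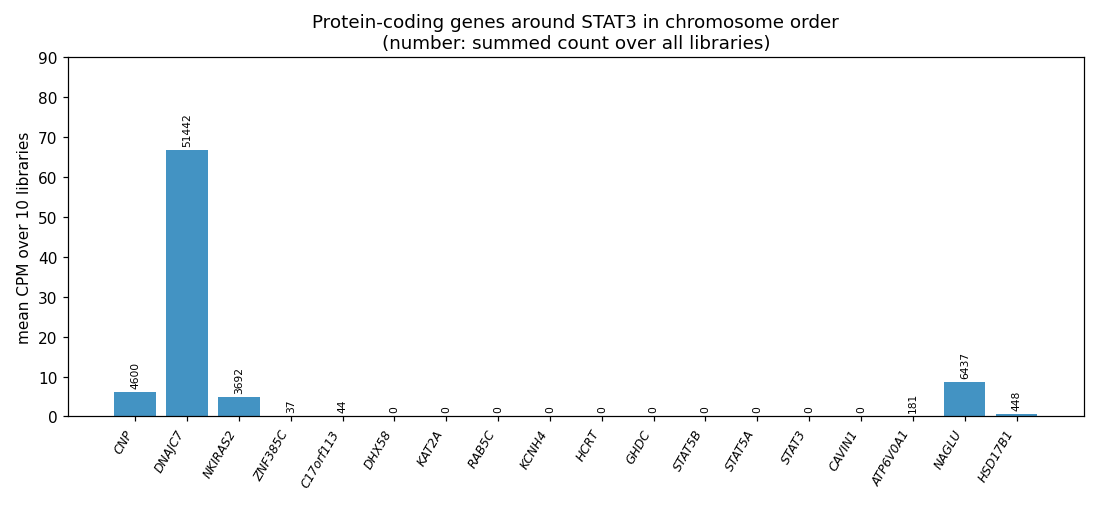
Mean CPM over 10 libraries (vertical axis) of the protein-coding genes around STAT3, in chromosome order, with the summed count of all libraries printed above each bar. A run of 10 genes from DHX58 to CAVIN1 is at 0, between ZNF385C and C17orf113 on one side and ATP6V0A1 on the other.

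Other genes of the pathway were taken from lists. Of 6 further ligands, 2 passed the filter, and oncostatin M, CTF1, IL27 and IL31 did not. EBI3, the shared subunit of IL27 and IL35, fell with RNF2 shRNA1 (log2 fold change -1.35, edgeR adjusted p = 0.00659) and RNF2 shRNA2 (-2.96, 1.35e-05). CNTF, the ciliary neurotrophic factor, rose with RNF2 shRNA2 (0.84, 0.0357). The EBI3 call with RNF2 shRNA1 was lost without Scramble replicate 2 and without RNF2 shRNA1 replicate 2. Of the 2 calls with RNF2 shRNA2, 1 was left without either Scramble replicate, without RNF2 shRNA2 replicate 2 and with the near-identical pairs summed. Of 5 tested genes among other receptors and shedding proteases, 3 were higher and 2 lower with RNF2 shRNA1, 3 and 1 with RNF2 shRNA2, 2 and 0 with PRT4165 and 2 and 1 with GW-516, all against Scramble. Of all genes tested, 54.7%, 42.1%, 41.6% and 55.5% were called in these 4 comparisons, in the same order. With the near-identical pairs summed, 2 were called with RNF2 shRNA2 and 1 with PRT4165; RNF2 shRNA2 also had 2 without Scramble replicate 2, and PRT4165 had 1 without either Scramble replicate or without PRT4165 replicate 1. ADAM17, a protease that sheds IL6R, rose in all 4 groups, with log2 fold changes of 0.37, 0.12, 0.40 and 0.51 in the same order. IL11RA, the chain that binds IL11, fell with RNF2 shRNA1 (-0.48, edgeR adjusted p = 0.00413) and GW-516 (-0.47, 0.00371).

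Next came the kinases and relay proteins. Of 10 tested, 9 were higher and none lower with RNF2 shRNA1, 4 higher and 3 lower with RNF2 shRNA2, 9 higher and none lower with PRT4165, and 6 higher and 1 lower with GW-516, against Scramble. Over all genes tested, 26.2%, 21.1%, 19.9% and 26.5% were higher and 28.6%, 21%, 21.7% and 29% lower in the same order. STAT5A and STAT5B were at 0. With the near-identical pairs summed, 4 of the 10 were called with GW-516. JAK3 was at 26.2 and 26.7 CPM in RNF2 shRNA1 libraries and 8.66 and 7.97 CPM in libraries labelled RNF2 shRNA2, against 13.4 and 13.9 CPM in Scramble libraries. Its log2 fold changes were 0.96 (edgeR adjusted p = 6.4e-12) and -0.72 (1.2e-08). JAK1, the main kinase on gp130, rose by 0.33 with RNF2 shRNA1 (4.5e-09) and 0.23 with PRT4165 (2.97e-06). STAT4 rose by 1.04 on the log2 scale with PRT4165 (edgeR adjusted p = 6.03e-08) and 0.95 with GW-516 (1.11e-07). PTPN11, the phosphatase SHP2 that docks on gp130, fell with GW-516 (-0.26, 1.94e-08).

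Among 13 other negative regulators, 4 were higher and 3 lower with RNF2 shRNA1, 2 and 2 with RNF2 shRNA2, 2 and 0 with PRT4165 and 5 and 4 with GW-516, against Scramble. The counts called, 7, 4, 2 and 9 of 13, stand beside shares over all genes of 54.7%, 42.1%, 41.6% and 55.5%. With the near-identical pairs summed, 4 were called with RNF2 shRNA1, 4 with GW-516 and 1 with PRT4165. The PRT4165 count was 1 without Scramble replicate 1 and 5 without PRT4165 replicate 1, and the GW-516 count was 5 without GW-516 replicate 1. SOCS1 rose with GW-516 (log2 fold change 1.20, edgeR adjusted p = 8.33e-06), SOCS2 with RNF2 shRNA1 (0.96, 2.16e-07) and SOCS6 with GW-516 (0.40, 2.35e-08). PIAS2, an inhibitor of STAT proteins, fell with RNF2 shRNA1 (-0.77, 4.88e-12).

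Genes known as STAT3 targets were followed in the same way. STAT3 itself had 0 counts in all 10 libraries, and its activity was not tested. Of 25 tested, 13 were higher and 4 lower with RNF2 shRNA1, 7 and 8 with RNF2 shRNA2, 12 and 3 with PRT4165 and 17 and 3 with GW-516, against Scramble. Shares called over all genes were 54.7%, 42.1%, 41.6% and 55.5%. The median log2 fold changes of the list were 0.24, 0.016, 0.26 and 0.65 in the same order. Over all genes tested the medians were -0.015, 0.0086, -0.012 and -0.0025. SERPINA3 enters these list counts and medians, though it passed the filter on low counts only through GW-516, where it is higher. It averaged 0.209 CPM with GW-516 and 0 to 0.0667 CPM in the other groups. Many genes of the list have other known activators. FOS, an AP-1 subunit, was at 12.2 and 13.7 CPM in GW-516 libraries, against 1.42 and 1.25 CPM in Scramble libraries (log2 fold change 3.27, edgeR adjusted p = 5.4e-16). TIMP1, an inhibitor of matrix proteases, rose with GW-516 (1.67, 1.03e-21), and VEGFA rose in all 4 groups, with log2 fold changes of 0.57, 0.43, 0.60 and 0.87. PIM1 rose with RNF2 shRNA1 (0.86, edgeR adjusted p = 7.49e-14), PRT4165 (0.76, 1.98e-12) and GW-516 (0.78, 4.5e-13), and was at -0.0054 with RNF2 shRNA2 (0.943). IL4R fell with RNF2 shRNA1 (-1.43, edgeR adjusted p = 3.88e-14) and RNF2 shRNA2 (-0.75, 2.72e-09) and rose with PRT4165 (0.62, 1.71e-08) and GW-516 (1.04, 4.61e-13). BIRC5, the survivin gene, fell with GW-516 (-0.63, 4.82e-15).

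The last list holds factors known to act on IL6 transcription or on the decay of its mRNA. Of 14 tested, 8 were higher and 3 lower with RNF2 shRNA1, 3 and 4 with RNF2 shRNA2, 5 and 3 with PRT4165 and 5 and 5 with GW-516, against Scramble, where 54.7%, 42.1%, 41.6% and 55.5% of all genes were called. ZC3H12A, the endonuclease Regnase-1 that cuts IL6 mRNA, fell with RNF2 shRNA1 (log2 fold change -1.45, edgeR adjusted p = 5.69e-15) and RNF2 shRNA2 (-0.53, 2.14e-07). RELB, an NF-kB subunit, rose with RNF2 shRNA1 (1.28, 8.65e-12). JUN, the AP-1 partner of FOS, rose with RNF2 shRNA2 (0.75, edgeR adjusted p = 2.85e-09), PRT4165 (0.90, 2.98e-10) and GW-516 (0.94, 6.07e-11). ZFP36, which binds AU-rich elements and speeds decay, rose with GW-516 (1.47, edgeR adjusted p = 3.49e-11), and HNRNPD fell with it (-0.62, 1.07e-13). NFKBIZ fell in all 4 groups, with log2 fold changes of -0.28, -0.56, -0.48 and -0.58.

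Genes with the pattern over the 5 groups most like each family gene were ranked by the root mean square difference of centred log2 group means among 12837 genes of at least 1 CPM, with 0.125 CPM added before the log. IL6 lies near that offset, which shrinks its pattern, so no like gene is given for it. IL11 was nearest to CRISPLD2, at a difference of 0.13, and WFDC3, at 0.18. LIF was nearest to NIPAL4-DT (0.067) and ENSG00000259976 (0.079), and SOCS3 to ENSG00000259605 (0.039) and PTPRH (0.060). CLCF1 was nearest to GTPBP2 (0.034) and SOS2 (0.036). Among the receptors, IL6ST was nearest to NBR2 (0.031) and CALCOCO1 (0.048), IL6R to POMZP3 (0.063) and CARD8-AS1 (0.067), OSMR to PCYOX1 (0.029) and RELT (0.039), and LIFR to PMM2 (0.012) and TMEM222 (0.021). With 5 groups, such a likeness is a description of levels.

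Markers of other cells differed between the groups. Summed over 10 haematopoietic markers, the level was 0.608 to 0.763 CPM in RNF2 shRNA1 libraries, 0.578 to 0.972 CPM in RNF2 shRNA2, 0.418 to 0.681 CPM in PRT4165, 1.91 to 1.98 CPM in GW-516 and 0.395 to 0.614 CPM in Scramble. With GW-516, LYZ averaged 0.821 CPM, against 0.145 CPM in Scramble, ITGAM 0.642 against 0.0292 CPM and CD14 0.316 against 0.132 CPM. LYZ (edgeR adjusted p = 1.17e-04) and ITGAM (3.74e-06) passed the test and CD14 did not (0.0596). ITGAM passed the filter on low counts only through GW-516, where it is higher. Its group means elsewhere were 0.0292 to 0.0811 CPM. CD3E and MS4A1 were at 0 in every group. Summed over 9 fibroblast and endothelial markers, the level was 166 to 171 CPM in RNF2 shRNA1, 270 to 277 CPM in RNF2 shRNA2, 235 to 245 CPM in PRT4165, 184 to 191 CPM in GW-516 and 277 to 281 CPM in Scramble. Nearly all of this sum is COL1A1 and COL1A2. With GW-516, COL1A1 averaged 46.5 CPM, against 26.7 CPM in Scramble, and COL1A2 139 CPM, against 251 CPM. With RNF2 shRNA1, COL1A1 averaged 19.3 CPM and COL1A2 147 CPM. COL3A1 and PDGFRB went the other way there, at 0.892 and 0.829 CPM, against 0.332 and 0.333 CPM in Scramble. Of 7 markers tested against Scramble, 2 were higher and 3 lower with RNF2 shRNA1 and 2 and 1 with RNF2 shRNA2. With PRT4165 1 was higher and 2 lower, and with GW-516 4 and 1. DCN and VWF are among these 7 and averaged at most 0.193 and 0.139 CPM in any group, close to the filter on low counts. Of all genes tested, 54.7%, 42.1%, 41.6% and 55.5% were called in these comparisons, in the same order. COL1A1 rose with GW-516 (log2 fold change 0.80, edgeR adjusted p = 2.18e-10), and COL1A2 fell with GW-516 (-0.85, 3.62e-17) and RNF2 shRNA1 (-0.77, 2.55e-16). Their part in the family's values was not tested. In cultures measured as a whole, fewer cells with a transcript and less of it per cell cannot be told apart.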

How the data were processed

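RNA-seq libraries were grouped by the labels into 5 groups of 2. Each library has 1 deposited table of raw counts. Per the file headers, the authors counted reads with featureCounts 1.4.3-p1, strand option 2, against GENCODE 18. No option for read pairs was set, so both ends of a fragment were counted, and even values made up 62.7% to 69.6% of the counts between 1 and 10. The submitters' processing notes name hg19 (GRCh37), DESeq2 1.8.1 and STAR, with no version or role stated for STAR. Strand-specific counting keeps a gene apart from its antisense partner. SAA1 and SAA2 in the target list are near-identical copies and uncertain.

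Symbols were matched for 51488 of 57445 identifiers (89.6%). Tests were run in R 4.3.3 with edgeR 4.0.16, TMM factors of 0.972 to 1.05, filterByExpr at a minimum count of 10, 1 coefficient per group over all 10 libraries and robust quasi-likelihood F tests. In each of 10 comparisons the two-sided p-values of 18478 genes were adjusted with the Benjamini-Hochberg method; 5 residual degrees of freedom were left. Levels are TMM-normalized CPM computed from the counts. On simulated data for RNF2 shRNA1 against Scramble (17530 genes), 149 of 189 genes changed 2-fold were recovered (78.8%), with 11 false calls. Few genes were changed there, and in RNF2 shRNA1 alone, while 54.7% of genes were called in the real comparison. These figures describe that setting and are not error rates for the tests given here. Chi-square per degree of freedom between the 2 libraries of a group, divided by 2 for counting both ends, was 1.08 in Scramble, 1.09 in RNF2 shRNA1, 1.10 in GW-516, 3.44 in PRT4165 and 6.11 in RNF2 shRNA2.

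The family genes and gene lists were chosen with earlier results of these data known. Named genes were all 10 family genes, RNF2 and BMI1, up to 4 genes per list with the smallest adjusted p in a comparison, and the 2 most alike genes of each family gene except IL6; neighbours of STAT3, markers and genes at 0 were named beyond that rule. The alternatives tried were RLE factors in edgeR, DESeq2 1.42.0, limma-voom (limma 3.58.1), no filter, 1 CPM in 2 libraries, the groups compared alone, a replicate block, a threshold of 0.01, near-identical pairs summed, the RNF2 shRNA2 libraries left out, and each library left out. SOCS7 and PECAM1 matched no identifier, and 1 listed gene is not reported here. Promoter windows came from RefSeq tables on GRCh38.p14, and gene coordinates from the count tables on GRCh37.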

Additional observations from a re-analysis of the deposited data

Results flagged for a closer look

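For IL6ST, LIFR and SOCS3 the hairpin groups were called in opposite directions against Scramble, and the difference between the hairpin groups was itself called. Against Scramble, SOCS3 was at a log2 fold change of -0.38 in libraries labelled RNF2 shRNA2 and 0.98 in RNF2 shRNA1, a log2 difference of -1.36 (edgeR adjusted p = 1.46e-12). LIFR was at 0.25 and -0.12 in the same order, a log2 difference of 0.38 (edgeR adjusted p = 1.63e-09). IL6ST was at -0.12 and 0.16, a log2 difference of -0.28 (edgeR adjusted p = 1.56e-07). RNF2 mRNA was not reduced where the label says RNF2 shRNA2, and BMI1 mRNA was, and the part of either in these differences was not tested.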

How the results depend on the processing

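Of 1211 values for the 90 pairs of family gene and comparison under the alternatives, 1166 kept their side of the threshold, 40 lost a call, 5 gained one and no called value reversed. Of the 1166, 14 that passed in neither setting changed sign, as did IL11 with RNF2 shRNA1 against Scramble, between -0.13 and 0.12 on the log2 scale. The family genes called in RNF2 shRNA2 against Scramble were 5, and 3 with the near-identical pairs summed, which leaves 7 samples. Over all genes that setting called 4902 genes, against 7772 otherwise, in RNF2 shRNA2 against Scramble, 4911 against 7695 in PRT4165 against Scramble and 4555 against 7594 in GW-516 against PRT4165; fewer samples enter that fit by construction, and its spread comes from PRT4165 and RNF2 shRNA2 alone. With 1 library left out at a time, calls among the family genes ran from 6 to 7 in RNF2 shRNA1, 4 to 5 in RNF2 shRNA2, 6 to 8 in PRT4165 and were 7 each time in GW-516, each against Scramble. LIFR with GW-516 against Scramble lost its call in 10 of 14 alternatives. A filter of 1 CPM in 2 libraries removes IL6, whose few counts limit every statement on it, and GW-516 against Scramble passed for IL6 when both groups were fitted alone (edgeR adjusted p = 0.0335). IL6 with GW-516 against RNF2 shRNA1 lost its call in 5 alternatives, and IL6R in 4. The replicate numbers did not pair the libraries: same-numbered deviations correlated at -0.121 to 0.0213 over 13104 genes, and with the replicate block the calls stayed at 7, 5, 7 and 8 of 9 genes in the 4 comparisons with Scramble (both hairpin groups, PRT4165, then GW-516), with no family gene's call changed. Of the list counts, 759 stayed within 1.5 times and 57 moved.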
